A study of Mus musculus with 10 samples.

Results

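This account describes 115 long noncoding RNAs (lncRNAs) that tumour-infiltrating CD8 T cells of the mouse expressed at a mean of at least 5 CPM, a gene's share of the counts of its library on a common scale, over 10 libraries. They were selected on those measured levels from 8664 genes that GENCODE M21 types as lincRNA or antisense, out of 54408 genes of any type in the tables. GENCODE types 76 of the members as lincRNA and 39 as antisense. These are the annotation's names and not positions: by the annotated coordinates 50 of the 76 lincRNAs and 36 of the 39 antisense RNAs overlap another gene on either strand. Of the 8664 genes, 5929 had no count in any library. The members closest above the limit were 5033430I15Rik at 5.09 CPM, 1810034E14Rik at 5.09 CPM and Tomm6os at 5.10 CPM. The genes closest below it were Gm26885 at 4.99 CPM, Gm37724 at 4.90 CPM and Gm37787 at 4.89 CPM.

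The cells were P14 CD8 T cells, whose transgenic receptor recognises the gp33 peptide, recovered from B16-gp33 melanomas of mice. NFAT5 KO cells carried floxed Nfat5 and a Cre recombinase driven by Cd4, and WT cells carried floxed Nfat5 without Cre. All were of C57BL/6 background, and both groups were activated for 48 hours in culture, then moved into tumour-bearing mice and sorted from the tumours after 7 days. There were 5 libraries of NFAT5 KO cells (678_3, 678_5, 678_6, 679_2, 679_6) and 5 of WT cells (678_2, 678_4, 679_3, 679_4, 679_5), and single-library values follow that order below. No label says that the libraries came from separate mice, so a p-value reflects how far these libraries spread, which may be partly technical. The age of the mice is not given in the sources used here.

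A lncRNA is a long RNA that the annotation does not list as read into a protein. Some stay in the nucleus and organise nuclear bodies or silence genes in cis, some bind proteins or host small RNAs in their introns, and for many the transcription of the locus matters rather than the product. In T cells, lncRNAs have been tied to activation, cytokine genes and cell survival, while most of the members below carry only a catalogue name. NFAT5 is the NFAT family member that cells use when they meet high salt.

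Depth ran between 22444310 and 32001285 estimated counts per library, and lincRNA and antisense genes together took 1.21% to 1.74% of them. The targeted gene Nfat5 stood at 11.4 to 26.8 CPM in NFAT5 KO libraries and 9.40 to 18.7 CPM in WT libraries (log2 fold change -0.04, adjusted p = 0.957). A gene total includes exons outside a deleted part, so this level does not check the labels. The 8 CD8 T cell markers summed to 9049 to 9907 CPM in NFAT5 KO and 8498 to 9776 CPM in WT libraries, and 2 of them, Trac and Cd2, were higher in NFAT5 KO. Xist was counted in every library and 4 Y-linked genes summed to at most 0.329 CPM.

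The sequences that carry what follows come first. One is a 134-base run that Gm26809 on chromosome 6 and Gm12840 on chromosome 4 share without a mismatch, in opposite orientation of their transcripts. Both RNAs rose in NFAT5 KO, and a read inside the run cannot be assigned to either by its bases. In Gm26809 it lies at chr6:18846276-18846409 on the plus strand, and in Gm12840 at chr4:117700512-117700645 on the plus strand (GRCm38, GENCODE M21 transcript sequence, read along Gm26809).
Gm26809 and Gm12840: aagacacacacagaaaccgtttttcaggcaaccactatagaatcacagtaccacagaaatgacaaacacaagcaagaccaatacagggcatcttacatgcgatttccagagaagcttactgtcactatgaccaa

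The others are promoter windows of 250 bases before to 50 bases after the start, from RefSeq on GRCm38.p6. They are shown for the members past the threshold whose RefSeq start is the GENCODE start: Malat1 and Mirt1, which rose in NFAT5 KO, and Lockd and Gm17767, which fell. Capitals mark TGGAAA, the core letters of the tonicity element that NFAT5 is known to bind.
Malat1 promoter, chr19:5802623-5802922 (minus strand): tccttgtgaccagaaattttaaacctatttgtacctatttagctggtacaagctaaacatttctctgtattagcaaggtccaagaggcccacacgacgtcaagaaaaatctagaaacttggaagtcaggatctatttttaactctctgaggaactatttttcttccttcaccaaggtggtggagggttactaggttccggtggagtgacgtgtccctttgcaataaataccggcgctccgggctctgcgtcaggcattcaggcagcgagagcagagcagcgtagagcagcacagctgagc
Mirt1 promoter, chr19:53464747-53465046 (minus strand): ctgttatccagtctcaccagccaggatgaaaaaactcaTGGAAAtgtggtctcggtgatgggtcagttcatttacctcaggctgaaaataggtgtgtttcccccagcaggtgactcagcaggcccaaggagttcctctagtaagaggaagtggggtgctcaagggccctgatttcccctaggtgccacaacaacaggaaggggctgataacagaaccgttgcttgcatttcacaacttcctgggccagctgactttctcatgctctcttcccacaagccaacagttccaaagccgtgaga
Lockd promoter, chr6:134928842-134929141 (plus strand): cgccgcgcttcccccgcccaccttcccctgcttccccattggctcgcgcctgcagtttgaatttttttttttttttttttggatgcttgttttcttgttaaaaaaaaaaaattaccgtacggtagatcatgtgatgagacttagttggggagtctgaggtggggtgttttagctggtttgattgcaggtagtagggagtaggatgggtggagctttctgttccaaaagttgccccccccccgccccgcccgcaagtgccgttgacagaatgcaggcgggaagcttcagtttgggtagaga
Gm17767 promoter, chr1:51596669-51596968 (minus strand): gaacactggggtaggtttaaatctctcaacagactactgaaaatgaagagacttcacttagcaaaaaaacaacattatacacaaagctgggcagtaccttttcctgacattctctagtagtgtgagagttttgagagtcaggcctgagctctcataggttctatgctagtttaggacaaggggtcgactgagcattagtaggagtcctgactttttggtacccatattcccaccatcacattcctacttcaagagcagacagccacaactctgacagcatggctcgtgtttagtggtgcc

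Letters searched for on both strands were TGGAAA, the E2F-type TTTCCCGC and TTTGGCGC, and TATAAA. Of the 4 windows printed, Mirt1 alone held a match, TGGAAA on the strand of the RNA with its first base 212 bases before the start. RefSeq windows were found for 44 members. TGGAAA was in 9 of these (20.5%), against 21.4% of all 32817 promoter windows, and in 3 of the 8 matched members past the threshold (Gm4316, Mirt1 and Gdap10). The RefSeq start lies 7307 bases from the GENCODE start for Gm4316 and 2244 bases for Gdap10, so these windows need not be promoters of the RNA counted, and the starts were the same for 16 of the 44. TATAAA was in 7 of 44 (15.9%), against 13.6% of all windows. TTTCCCGC was in 0 of 44, against 1.07% of all windows, and TTTGGCGC in 1 of 44, against 0.515%. A match is a run of letters and not a shown binding site.

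The median member held 10.5 CPM, and 54 of them lay between 5 and 10 CPM, 49 between 10 and 100 CPM and 12 at 100 CPM or more. Their coefficient of variation between libraries had a median of 20.9% in NFAT5 KO and 22.1% in WT. On the TPM scale, which corrects for transcript length, the median was 13.4. Gm26917 led with 3712 TPM, followed by AW112010 with 2088 TPM, Gm26809 with 939 TPM, Gm10076 with 596 TPM and Malat1 with 569 TPM. Next came Gm42418 (364 TPM), Gm12840 (355 TPM), Gm26825 (245 TPM), Gm11175 (242 TPM), Gm37401 (206 TPM), Gm20400 (205 TPM) and Gm20186 (169 TPM).

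Several leaders lie on or resemble other abundant RNAs. Gm26917 ends 11 bases before the ribosomal RNA gene CT010467.1 on chromosome 17, and Gm42418 shares 96.3% of its 31-base words with that gene. Gm10076, which RefSeq types as a pseudogene, shares 82.2% of its words with Rpl41, a ribosomal protein gene. Gm26917 held 8387, 3463, 5515, 5069.9 and 5077 CPM in NFAT5 KO libraries and 6942, 5667, 5552, 4440.4 and 7864 CPM in WT libraries. The ranges overlapped, and the log2 change was -0.10 ± 0.21 (SE, adjusted p = 0.822). All members together took 1.21% to 1.64% of counts in NFAT5 KO libraries and 1.10% to 1.46% in WT libraries, which overlap. Without the 3 members of that ribosomal locus, the others took 0.730% to 0.815% in NFAT5 KO libraries and 0.563% to 0.667% in WT libraries, with no overlap. Gm26809 alone made up a mean of 0.270% in NFAT5 KO and 0.180% in WT. Without it as well, the shares were 0.469% to 0.509% in NFAT5 KO libraries and 0.421% to 0.471% in WT libraries, and the ranges overlapped.

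AW112010, a mouse RNA known from inflammatory responses of immune cells, held 1209.5, 1059.7, 1313, 1128 and 1423 CPM in NFAT5 KO libraries and 1199.6, 1130.0, 986, 1222 and 965 CPM in WT libraries. The ranges overlapped, and the log2 fold change of 0.20 ± 0.10 (SE) did not pass the threshold (adjusted p = 0.276). RefSeq matched 55 members. It typed 48 as lncRNA and 5 as protein-coding, among them 1810058I24Rik, whose RefSeq synonym Stmp1 names a small mitochondrial protein. That gene held 57.9 ± 3.70 CPM in NFAT5 KO and 57.6 ± 6.20 CPM in WT libraries (SD, n = 5 each).

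Between the genotypes, 26 of the 115 members passed an adjusted p of 0.05, 15 higher and 11 lower in NFAT5 KO. Over all 13081 genes tested, 9.01% passed, 3.38% higher and 5.63% lower. Among the 9371 genes tested with a mean of at least 5 CPM, 11.5% passed, 4.52% higher and 6.99% lower. Of the members 22.6% passed, and the difference between the shares was not tested. The counts of rises and falls among members changed with the libraries used. They were 5 higher and 7 lower without WT 678_2 and 5 and 8 without NFAT5 KO 679_2. In the libraries whose titles begin with 679 they were 2 and 3. Over all genes the counts changed as well, from 442 and 737 to 202 and 494, 259 and 594, and 71 and 254, in that order. The median log2 fold change was 0.10 over members and 0.02 over all genes tested. The CPM ranges of the genotypes did not overlap for 28 members, against 12.3% of the genes at that level.

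**Figure D1:**
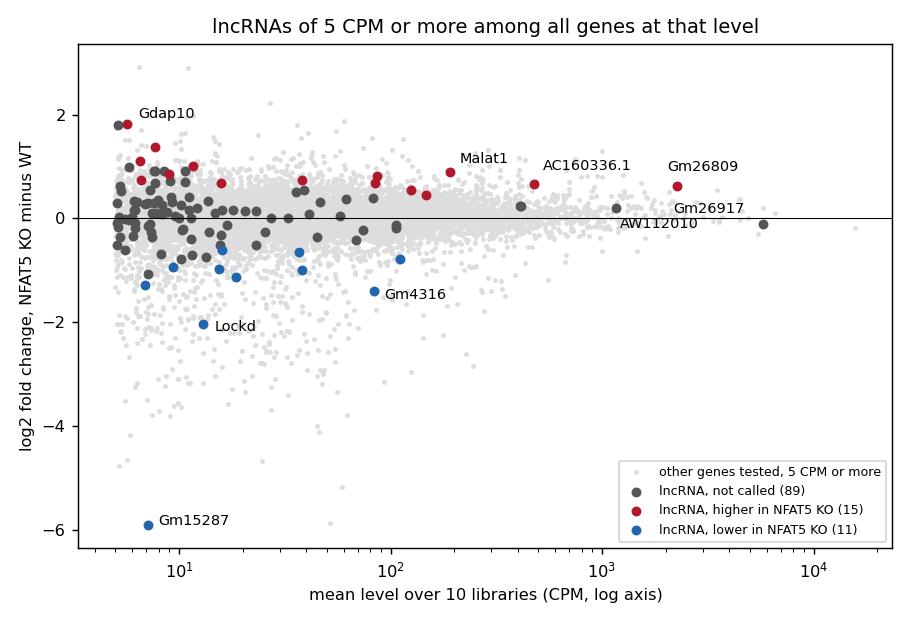
Each dot is 1 gene, with its mean CPM over 10 libraries (log axis) against its log2 fold change, NFAT5 KO minus WT. The 15 red lncRNAs were higher and the 11 blue ones lower in NFAT5 KO, 89 dark grey ones did not pass the threshold, and light grey dots are the other genes tested at 5 CPM or more.

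The selection on a mean over both genotypes let 17 members in through 1 genotype. Of these, 9 lay below 5 CPM in NFAT5 KO and 8 below 5 CPM in WT, and 3 of each passed the threshold. Among the 98 members at 5 CPM or more in both genotypes, 12 were higher and 8 lower. Of the lincRNAs, 11 rose and 9 fell, and of the antisense RNAs 4 rose and 2 fell. Of the 12 members at 100 CPM or more, 5 rose and 1 fell, and the share over all genes at that level was not taken. Among these rises, Gm26809, AC160336.1 and Gm12840 share sequence with each other, as given below. Library titles begin with 678 (3 NFAT5 KO, 2 WT) or 679 (2 NFAT5 KO, 3 WT), which the labels do not explain. All 26 members kept their sign within each set, while 0 were past the threshold in 678 alone (edgeR, 19 of the 26 at an unadjusted p under 0.05) and 5 in 679 alone. The 26 were picked with the libraries of both sets, so a kept sign largely follows from that choice. With that prefix as a block, 20 of the 26 stayed past the threshold, and Mirt1, Gm26853, Norad, Gm26617, Gm12840 and Gm26880 did not (adjusted p of 0.0544 to 0.0643). In a bulk library, fewer cells that make an RNA and less of it per cell cannot be told apart.

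Malat1, the RNA of nuclear speckles, which are sites where splicing factors gather, rose. It held 249.7, 264, 344, 194 and 182 CPM in NFAT5 KO libraries, against 112, 184, 122, 135 and 128 CPM in WT libraries. WT library 678_4 lay just above the lowest NFAT5 KO library, so the ranges overlapped, and the other WT libraries lay below. Its log2 fold change came to 0.90 ± 0.18 (SE, adjusted p = 0.00772), and it passed in all 10 fits that left out 1 library (highest adjusted p = 0.0293, without WT 678_2). Of its 4 annotated transcripts a 485-base one took 77.9% of the counts in NFAT5 KO and 78.4% in WT. A second gene model inside it on the other strand, Gm37376, rose by a log2 fold change of 0.75 (adjusted p = 0.0187). Gm37376 shares 423 words with Malat1, and the library kit named in the labels does not keep strand. Reads of that shared sequence cannot be told apart by strand, so the rise of Gm37376 need not be separate from that of Malat1. Neat1, the RNA of paraspeckles, was no member at 4.69 ± 1.97 CPM in NFAT5 KO and 2.78 ± 0.881 CPM in WT (SD, n = 5 each, adjusted p = 0.219).

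Tug1, a conserved lncRNA first found in retina, held 87.8, 101, 106, 129 and 89.8 CPM in NFAT5 KO libraries and 53.7, 72.8, 78.8, 45.6 and 78.8 CPM in WT libraries. Every NFAT5 KO library was above every WT library. On the log2 scale the change was 0.68 ± 0.16 (SE, adjusted p = 0.0204), and 7 of 10 fits without 1 library kept it (highest adjusted p = 0.0604, without NFAT5 KO 679_2). Its start lies 482 bases from that of Morc2a on the other strand, whose log2 fold change of 0.65 did not pass (adjusted p = 0.141).

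2900097C17Rik, known as Norad, binds Pumilio proteins and is tied to chromosome stability. It held 129, 138, 147, 180.4 and 139 CPM in NFAT5 KO libraries and 101, 123, 116, 67.7 and 105 CPM in WT libraries, with no overlap. Its log2 fold change of 0.56 ± 0.15 (SE, adjusted p = 0.0351) passed in 4 of 10 fits without 1 library (highest adjusted p = 0.1, without NFAT5 KO 679_2), and not with the label prefix as a block (adjusted p = 0.0544).

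Mirt1, named for its discovery after myocardial infarction in mice, held 15.3, 17.4, 13.5, 21 and 9.70 CPM in NFAT5 KO libraries, against 6.89, 9.49, 9.43, 4.18 and 9.25 CPM in WT libraries. The highest WT library came close to the lowest NFAT5 KO library without reaching it. The fitted log2 change was 1.01 ± 0.27 (SE, adjusted p = 0.0332), kept in 3 of 10 fits without 1 library (highest adjusted p = 0.0934, without NFAT5 KO 679_2) and lost with the label prefix as a block (adjusted p = 0.0544). Gdap10, which lies inside Nampt on the same strand, held 2.82, 9.74, 15.8, 9.91 and 6.01 CPM in NFAT5 KO and 2.07, 3.49, 4.28, 1.31 and 1.65 CPM in WT libraries. NFAT5 KO 678_3 lay within the WT range. Its log2 fold change of 1.82 ± 0.46 (SE, adjusted p = 0.0273) was the largest rise among members past the threshold, kept in 5 of 10 fits without 1 library (highest adjusted p = 0.0780, without NFAT5 KO 678_6). Nampt, the enzyme of NAD salvage around it, had a log2 fold change of 0.13 (adjusted p = 0.605).

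Other members that rose and are not described further below carry catalogue names only. Gm2682 averaged 19.3 ± 3.29 CPM in NFAT5 KO and 12.4 ± 1.61 CPM in WT libraries (SD, n = 5 each), a log2 fold change of 0.68 (adjusted p = 0.0227), kept in 4 of 10 fits. Gm26853 averaged 11.0 ± 4.65 CPM in NFAT5 KO and 4.35 ± 2.07 CPM in WT, with 1 WT library inside the NFAT5 KO range (adjusted p = 0.0336, kept in 3 of 10 fits, and 0.0553 with the prefix block). Gm26617 averaged 8.22 ± 1.05 CPM in NFAT5 KO and 5.06 ± 0.476 CPM in WT, with no overlap, and was kept in 1 of 10 fits (adjusted p = 0.0409, and 0.0643 with the prefix block). The pseudogene Zxda, on the other strand of Gm26617, rose by a log2 fold change of 0.96 (adjusted p = 0.0487).

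**Figure D2:**
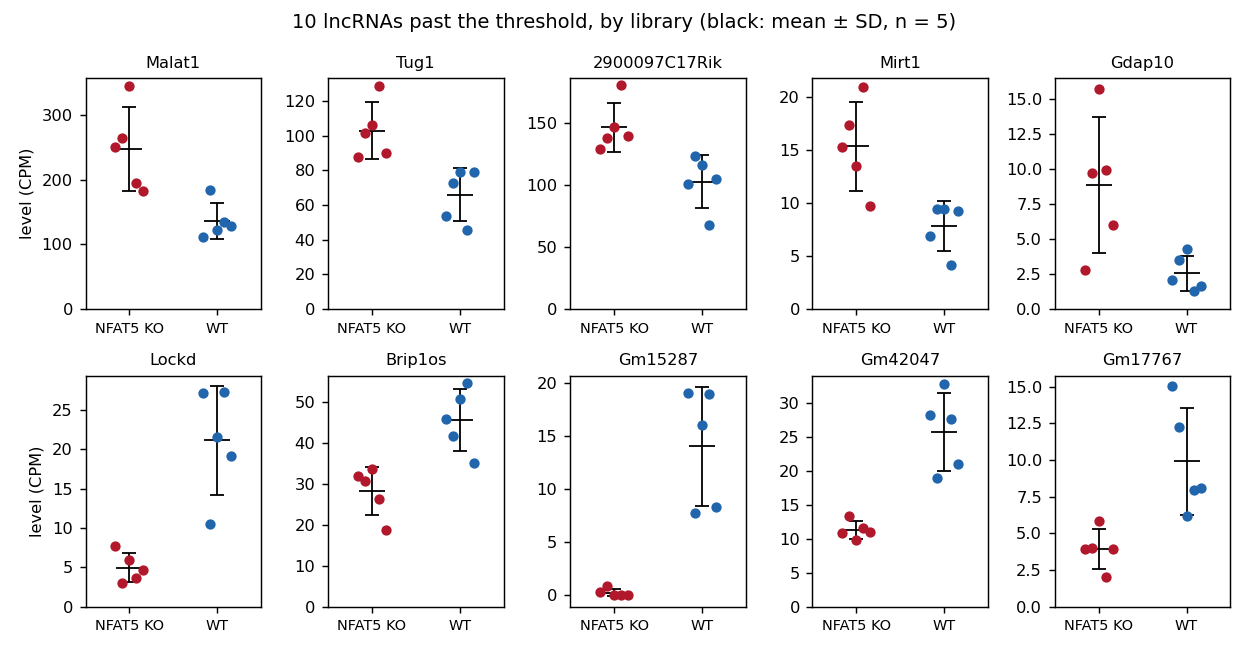
Levels in CPM of 10 lncRNAs past the threshold, with 1 dot per library, NFAT5 KO in red left of WT in blue, and the mean ± SD in black (n = 5 each). The upper row holds RNAs that were higher and the lower row RNAs that were lower in NFAT5 KO, and Gm15287 is near 0 in every NFAT5 KO library.

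Among the members that fell, Gm15287 stood apart. This antisense RNA (chromosome 13, 111725517 to 111735124, GRCm38) held 0.238, 0.825, 0, 0.0343 and 0 CPM in NFAT5 KO libraries, against 19.1, 7.71, 16, 19 and 8.29 CPM in WT libraries. That is 30 estimated counts over all 5 NFAT5 KO libraries and 2023 over the 5 WT libraries. Its log2 change was -5.92 ± 0.85 (SE, adjusted p = 0.00121), which depends on how such low counts are smoothed, and all 10 fits without 1 library kept it (highest adjusted p = 0.00525, without WT 678_2). The 5 other genes tested within 500000 bases had edgeR adjusted p-values of 0.158 to 0.939. The nearest of them were Map3k1, a kinase of stress signalling, with a log2 fold change of 0.05, and Mier3, with -0.27. It shares 36.6% of its words with Eci2, an enzyme of fatty acid oxidation elsewhere on chromosome 13, which held 32.8 ± 6.02 CPM in NFAT5 KO and 88.6 ± 23.7 CPM in WT libraries (log2 fold change -1.39, adjusted p = 0.000968).

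Lockd lies 3579 bases downstream of Cdkn1b, which encodes the cell cycle inhibitor p27, and its locus is known as an enhancer of that gene in mouse erythroblasts. It held 7.67, 3.06, 5.89, 3.63 and 4.63 CPM in NFAT5 KO libraries and 27.1, 10.5, 21.5, 27.3 and 19.2 CPM in WT libraries. No NFAT5 KO library reached the lowest WT library. It differed on the log2 scale by -2.04 ± 0.31 (SE, adjusted p = 0.00176), kept in all 10 fits without 1 library (highest adjusted p = 0.00714, without WT 678_2). Cdkn1b held 4.4 ± 2.69 CPM in NFAT5 KO and 3.65 ± 2.49 CPM in WT libraries and did not pass (log2 fold change 0.31, adjusted p = 0.774).

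Brip1os starts 177 bases from Brip1, which encodes a helicase of DNA crosslink repair, and reads in the other direction. It held 31.9, 30.8, 33.6, 26.3 and 18.8 CPM in NFAT5 KO libraries and 45.8, 41.8, 50.8, 54.5 and 35.0 CPM in WT libraries, with no overlap. Its log2 fold change of -0.65 ± 0.17 (SE, adjusted p = 0.0335) was kept in 5 of 10 fits without 1 library (highest adjusted p = 0.0769, without WT 678_2). Brip1 itself fell to 7.51 ± 4.53 CPM in NFAT5 KO against 37.0 ± 3.69 CPM in WT libraries (log2 fold change -2.26, adjusted p = 0.00135). Med13, a Mediator subunit whose gene Brip1os runs into on the other strand, rose by a log2 fold change of 0.81 (adjusted p = 0.0463).

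Gm42047 on chromosome 8 held 10.9, 13.4, 9.83, 11.6 and 11.0 CPM in NFAT5 KO libraries and 28.3, 18.9, 32.8, 27.7 and 20.9 CPM in WT libraries, with no overlap. Its log2 fold change came to -1.14 ± 0.18 (SE, adjusted p = 0.00182), and all 10 fits without 1 library kept it. Gm17767 averaged 3.96 ± 1.36 CPM in NFAT5 KO and 9.91 ± 3.64 CPM in WT libraries (SD, n = 5 each), a log2 fold change of -1.29 (adjusted p = 0.0296) kept in 6 of 10 fits.

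Lists of other RNAs were set beside these falls, and not all of them fell. All 18 genes of a cell cycle list fell, with a median log2 fold change of -2.32. Of 10 tested macrophage markers 1 passed the edgeR test, lower in NFAT5 KO (Adgre1). At an unadjusted edgeR p under 0.05 there were 3 of them, and DESeq2 called 1. The median log2 fold change of the 10 was -1.92, and Itgam alone had a positive one (0.27). The 12 listed summed to 37.5 to 79.2 CPM in NFAT5 KO and 72.3 to 157 CPM in WT libraries, none of them at 0 in every library. The 10 melanoma markers summed to 2.58 to 18.7 CPM in NFAT5 KO and 7.44 to 31.5 CPM in WT libraries. The melanoma genes Sox10 and Slc45a2 were at 0 throughout, and 0 of 3 tested passed the edgeR test, 0 of them at an unadjusted p under 0.05 and 0 by DESeq2. Of the lists for other cells, the edgeR test called 1 of 2 B cell markers tested lower and 0 of 4 dendritic cell, 1 CD4 T cell, 2 NK cell and 1 endothelial marker, and no neutrophil, fibroblast or erythroid marker passed the count filter. At an unadjusted edgeR p under 0.05 there were 3 dendritic cell, 0 CD4 T cell, 0 NK cell and 1 endothelial marker. DESeq2 called 1 dendritic cell marker and 0 of the other 3 lists. The 4 dendritic cell markers tested all had positive log2 fold changes (Zbtb46 1.10, Xcr1 1.09, Itgax 0.54 and Ccr7 0.40). The endothelial marker Pecam1 had -0.42. The part of all these RNAs in the changes of the members was not tested.

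**Figure D3:**
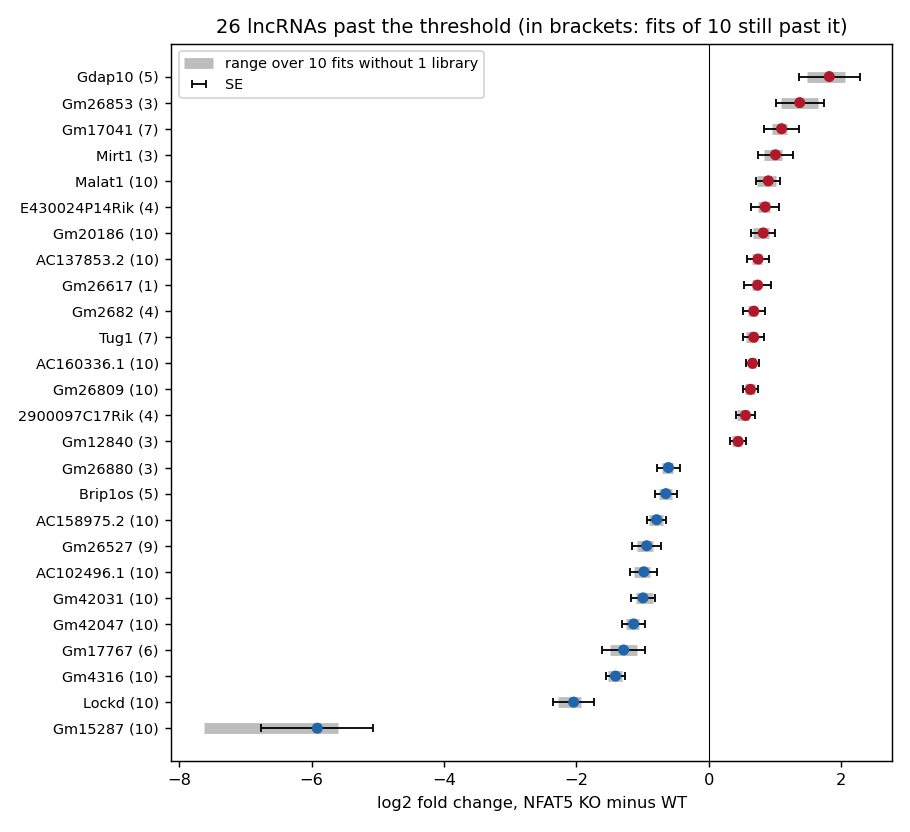
The 26 lncRNAs past the threshold with their log2 fold change (NFAT5 KO minus WT, dot), its SE (black bar) and its range over 10 fits that each left out 1 library (grey bar). Numbers in brackets give how many of those 10 fits still passed, which runs between 1 and 10, and every grey bar stays on 1 side of 0.

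The calls were not 26 separate sequences. Transcripts were cut into all words of 31 bases, on either strand, and 41 members shared at least 50% of theirs with other genes, counted over all of them, 32 shared 10% to 50% and 42 less than 10%. In that order 4 rose and 6 fell, 6 rose and 3 fell, and 5 rose and 2 fell. These are 24.4%, 28.1% and 16.7% of each class, and such shares were not taken over all genes. Salmon shares reads between such genes by a model, so their single values are less certain than their sum.

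Families were picked among members past the threshold with the same sign, so a common direction within a family follows from that choice. Of the 11 members that fell, 5 formed 1 family: Gm4316, Gm42031, Gm26880, AC158975.2 and AC102496.1, on 3 chromosomes. All 10 pairs shared words, 19 to 528 of them. Gm4316 held 46.2, 43.9, 43.5, 46.4 and 42.7 CPM in NFAT5 KO libraries and 127, 86.1, 133, 159.9 and 103 CPM in WT libraries. The NFAT5 KO libraries lay within a narrow band below every WT library. Its log2 fold change of -1.41 ± 0.14 (SE, adjusted p = 0.000211) had the smallest p among members, and all 10 fits without 1 library kept it (highest adjusted p = 0.00139, without NFAT5 KO 678_6).

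The other 4 had log2 fold changes of -0.99 (Gm42031, adjusted p = 0.00417), -0.98 (AC102496.1, adjusted p = 0.00927), -0.79 (AC158975.2, adjusted p = 0.00431) and -0.61 (Gm26880, adjusted p = 0.0421). None of the 5 had overlapping groups, and Gm26880 was kept in 3 of 10 fits without 1 library and not with the prefix block (adjusted p = 0.0642), the others in 10 of 10 and with the block. Summed, the family held 183, 182, 159.6, 165 and 169.8 CPM in NFAT5 KO libraries, against 358, 257, 399.7, 462 and 299 CPM in WT libraries. Some genes of other types with shared words fell too, Gm43305 by a log2 fold change of -1.01 (adjusted p = 0.000272) and Gm42427 by -0.72 (adjusted p = 0.000968). Miga1, which shares 19.6% of the words of Gm4316, had a log2 fold change of -0.04 (adjusted p = 0.921), and Cep85, which shares 20.3% of those of Gm26880, had -0.26 (adjusted p = 0.183). AI506816, which shares 28.1% of the words of Gm26880, rose by 0.33 (adjusted p = 0.0220). Another neighbour, Pik3c3, a lipid kinase of autophagy 614 bases from AC102496.1, rose by 0.60 (adjusted p = 0.00527).

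Of the 15 members that rose, 4 formed a second family, picked in the same way: Gm26809, Gm20186, Gm12840 and AC160336.1. All of them shared words with each other (79 to 825). The long AC160336.1 shares words with 4938 genes. Among these is the member Dubr (102 words), left out with a log2 fold change of 0.01 (edgeR adjusted p = 0.9875). Gm26809 and Gm20186 overlap on opposite strands of chromosome 6, and the run printed above links them to chromosome 4. Gm26809 held 2607, 3243, 2483, 2747 and 2436 CPM in NFAT5 KO libraries and 1417, 2188, 1831, 1607 and 1942 CPM in WT libraries. Every NFAT5 KO library was above every WT library, and the log2 change was 0.63 ± 0.12 (SE, adjusted p = 0.00470).

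AC160336.1, a transcript of 93147 bases, held 497, 620.4, 608, 580.3 and 578 CPM in NFAT5 KO libraries and 329, 448, 391, 335 and 374 CPM in WT libraries. The groups did not overlap, and the log2 change was 0.66 ± 0.10 (SE, adjusted p = 0.00128), the smallest p among the rises. Per length it was a weak transcript, at 5.83 TPM in NFAT5 KO and 3.68 TPM in WT libraries. Gm20186 rose by 0.82 (adjusted p = 0.0148) and Gm12840 by 0.45 (adjusted p = 0.0347). Without 1 library, Gm12840 passed in 3 of 10 fits and the other 3 RNAs in 10, and with the prefix as a block Gm12840 did not pass (adjusted p = 0.0608). The family summed to 3382, 4211, 3321, 3607 and 3254 CPM in NFAT5 KO libraries and 1887, 2859, 2410.0, 2117 and 2534 CPM in WT libraries. Lsm8, an RNA-binding protein gene whose start lies 372 bases from that of Gm20186, did not pass (log2 fold change -0.38, adjusted p = 0.136).

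Members were next set beside the gene on the other strand. Of 49 such pairs with a tested protein-coding gene, 19 shared at least 50% of the member's words with that gene. In these, 16 had the same sign of change, the member's and the gene's log2 fold changes differed by a median of 0.12, and Pearson's r was 0.93 across the 19 pairs. In the other 30 pairs, 19 had the same sign, the median difference was 0.30 and r was 0.12. Pairs of genes are not independent replicates, both values come from the same libraries, and no test of r was made. The widest gap among the 19 was that of 2310031A07Rik, at -0.71 (adjusted p = 0.0536), and Med7, a Mediator subunit, at 0.07 (adjusted p = 0.870), though 60.7% of its words were shared. The library kit named in the labels does not keep strand, and the strand setting of the counting is not given in the sources used here, so reads of shared sequence cannot be told apart by strand.

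Of the closely sharing pairs, 3 members passed the threshold, each with its gene. Gm17041, inside Cish, a brake on cytokine and receptor signalling, held 7.33, 8.88, 8.18, 10.6 and 9.07 CPM in NFAT5 KO libraries and 2.62, 5.20, 5.06, 2.93 and 5.42 CPM in WT libraries, with no overlap. It rose by 1.10 (adjusted p = 0.0213) and Cish by 0.88 (adjusted p = 0.00562), on the log2 scale. AC137853.2, at the start of Dusp5, a phosphatase that switches off ERK, rose by 0.75 (adjusted p = 0.0114), and Dusp5 by 0.81 (adjusted p = 0.00586). Gm26527 fell by 0.94 (adjusted p = 0.0205), and Arsb, a lysosomal sulfatase, fell by 0.80 (adjusted p = 0.000668).

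A further 4 genes of such pairs passed without their member: Fen1 (a flap nuclease of replication, -0.83, with Gm10143 at -0.75), Jund (an AP-1 subunit, 0.45, with Gm11175 at 0.33), Runx2 (0.52, with Runx2os1 at 0.52) and 4930523C07Rik (0.52, with 4930562F07Rik at 0.31). Gm11175 shares all of its words with Jund. Of the other 30 pairs, 2 had both sides past the threshold. E430024P14Rik held 8.45, 12.4, 12.8, 13.9 and 9.61 CPM in NFAT5 KO libraries and 4.62, 6.97, 6.15, 7.86 and 6.99 CPM in WT libraries, with no overlap. It rose by a log2 fold change of 0.85 (adjusted p = 0.0268), and Tagap, a GTPase activator of T cells that it overlaps, by 1.13 (adjusted p = 0.00164). The second pair was Brip1os and Med13, which moved in opposite directions.

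**Figure D4:**
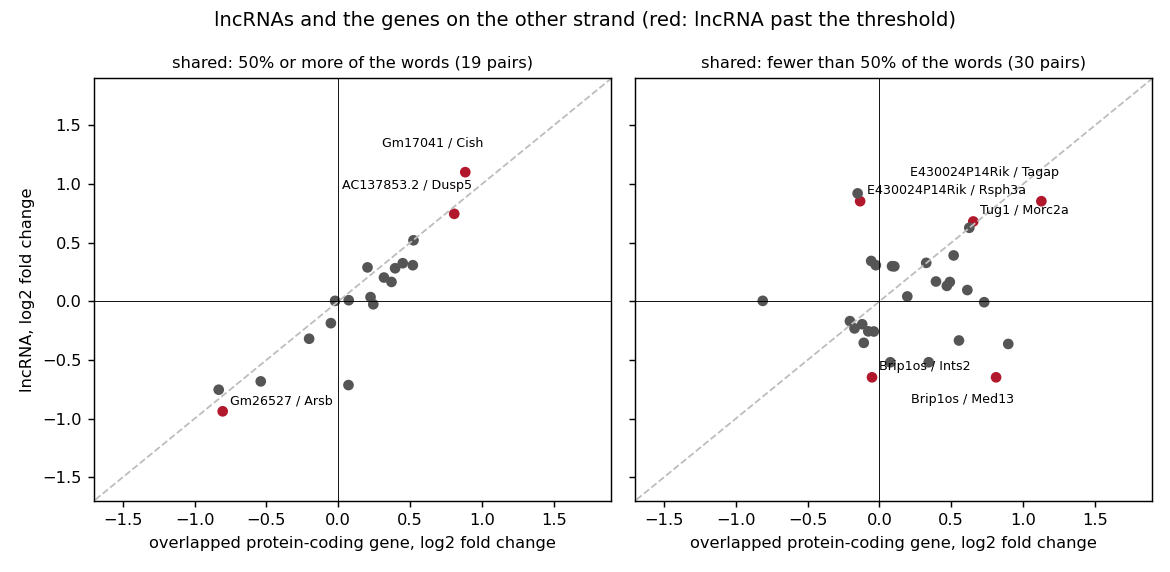
Log2 fold change of each lncRNA against that of the protein-coding gene on the other strand, for 19 pairs that share at least 50% of the lncRNA's words (left) and 30 that share fewer (right), with the line of equality dashed and lncRNAs past the threshold in red. Most left pairs lie near the line, with 2310031A07Rik below it (-0.71, against 0.07 for Med7), and the right ones scatter around it.

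Members with known roles were few among the rest. Kcnq1ot1, which silences imprinted neighbours in cis, held 9.72, 12.7, 23.7, 13.2 and 9.95 CPM in NFAT5 KO libraries and 5.03, 9.62, 11.0, 5.99 and 5.87 CPM in WT libraries. The ranges overlapped, and its log2 fold change of 0.92 ± 0.30 (SE) missed the threshold (adjusted p = 0.0783). Xist, which coats the inactive X chromosome, held 43.2, 50.7, 48.0, 47.5 and 40.6 CPM in NFAT5 KO libraries and 21.6, 35.8, 22.2, 52.7 and 29.3 CPM in WT libraries. WT 679_4 was the highest of all 10 libraries, and the log2 change was 0.55 (adjusted p = 0.144). Its antisense partner Tsix had 0.26 (adjusted p = 0.551).

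Pvt1, the neighbour of the growth regulator Myc, held 13.4, 15.6, 6.67, 13.3 and 14 CPM in NFAT5 KO libraries and 9.31, 10.7, 11.5, 8.24 and 9.27 CPM in WT libraries. NFAT5 KO 678_6 lay below all 9 others, and the log2 change was 0.40 (adjusted p = 0.317), while Myc had 0.64 (adjusted p = 0.0312). Snhg6, a host of small nucleolar RNAs, had a log2 fold change of -0.27 (adjusted p = 0.477). Of 13 tested snoRNA host genes, Snhg6 included, Snhg15, which GENCODE types as a processed transcript and which is no member, rose by 1.05 (adjusted p = 0.0170), and the other 12 did not pass the edgeR test. At an unadjusted edgeR p under 0.05 there were 3 of the 13, and DESeq2 called 2.

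Few genes of proteins that work with such RNAs passed the threshold. Of 12 paraspeckle protein genes, 15 of small nucleolar RNA-protein particles and 14 of nonsense-mediated decay, 0 passed the edgeR test in either direction. At an unadjusted edgeR p under 0.05 the counts were 1, 2 and 3, and DESeq2 called 1 of each list. All 12 paraspeckle protein genes had negative log2 fold changes, with a median of -0.12. They summed to 2785 to 3066 CPM in NFAT5 KO and 3090 to 3586 CPM in WT libraries, with no overlap. The sums of the other lists, small nucleolar particles and decay, overlapped. Of 16 nuclear exosome genes tested, Exosc8 fell by 0.45 on the log2 scale (adjusted p = 0.0341). At an unadjusted edgeR p under 0.05 there were 2 of the 16, and DESeq2 called 2. The 16 summed to 890 to 1013 CPM in NFAT5 KO and 1037 to 1125 CPM in WT libraries, with no overlap. The list of microRNA host RNAs first held 5 tested genes, of which Mirt1, described above, rose. Of the 4 others (Mir155hg, Mir17hg, Mir22hg and Dleu2) 0 passed the edgeR test, 1 had an unadjusted p under 0.05, and DESeq2 called 1. Among the other lists of lncRNAs, of the 5 X inactivation RNAs and 3 imprinted RNAs tested 0 passed the edgeR test, with 1 in each list at an unadjusted p under 0.05, and DESeq2 called 0 X inactivation RNAs and 1 imprinted RNA. Of 6 tested lncRNAs studied in lymphocytes or growth control, 2 passed the edgeR test, Tug1 and Norad, both higher in NFAT5 KO. At an unadjusted edgeR p under 0.05 there were 3 of the 6, and DESeq2 called 3.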

How the data were processed

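The authors deposited 1 Salmon table per library, per the file headers with an estimated count and a TPM value of 140919 transcripts each. Salmon 0.14.1 and the build GRCm38.p6 are named in the submitters' processing notes. Transcripts were matched to GENCODE M21 (140045, 99.38%), and estimated counts were summed per gene. CPM is a gene's summed count rescaled by its library's sum, and the deposited TPM values, summed per gene, served only to compare levels per length. Neither annotation release nor strand setting is given in the sources used here. Library totals set the counting error, while SD and SE also hold the spread between libraries. The 20 pairs of libraries within a genotype each differed by more than sampling noise.

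Counts were rounded and tested with edgeR 4.0.16 (quasi-likelihood, R 4.3.3, robust, filterByExpr, TMM) over all 10 libraries, NFAT5 KO minus WT, with no covariate. Benjamini-Hochberg adjustment ran over 13081 genes at a threshold of 0.05. The SE is the size of the log2 change over the root of F. Words of 31 bases were compared on both strands across GENCODE M21 transcripts. Promoters came from RefSeq, and gene names from GENCODE.

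Named members were up to 15 higher and 15 lower with the smallest p past the threshold and the 12 with the highest TPM. Members on role lists were added, as were 3 genes on each side of the limit of 5 CPM. So were members that passed together with a gene overlapping on the other strand or sharing their promoter. Other genes were named after their values were seen. The members and lists were chosen with earlier results of these data known. Alternatives were other scalings, filters and tests (DESeq2 1.42.0, limma 3.58.1), a length offset, the label prefix, other limits for members and leaving out each library. The 678 and 679 that begin the titles are called the label prefix, whose meaning the labels do not give.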

Additional observations from a re-analysis of the deposited data

Results flagged for a closer look

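In each of the 39 named members, the 5 libraries of each genotype were screened for 1 library that stood apart, which is 78 groups, and chance alone flags about 1 in 20 groups. 3 groups did, all in NFAT5 KO. Gm15287 was highest in NFAT5 KO 678_5 at 0.825 CPM, with the other NFAT5 KO libraries at 0 to 0.238 CPM. Kcnq1ot1 was highest in NFAT5 KO 678_6 at 23.7 CPM, with the others at 9.72 to 13.2 CPM. Pvt1 was lowest in NFAT5 KO 678_6 at 6.67 CPM, with the others at 13.3 to 15.6 CPM.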

How the results depend on the processing

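The 26 calls kept their direction under every alternative and left-out library that tested them, and Gdap10 was not tested with at least 5 CPM in at least 5 libraries. All of these fits draw on the libraries that picked the 26, so a kept direction largely follows from that choice. The counts of members higher and lower in NFAT5 KO were 15 and 11, and 26 and 17 with the DESeq2 Wald test, against 442 and 737 of 13081 genes and 826 and 1169 of 22914 genes. Label prefix 678 alone gave 0 and 0 with edgeR (0 and 0 over all genes), and prefix 679 alone 2 and 3 (71 and 254 over all genes). At an unadjusted edgeR p under 0.05, prefix 678 alone held 15 and 11 members, which are not the same members as the calls. Among them were 19 of the 26 calls, and the share over all genes at that unadjusted p was not taken. The prefix as a block gave 11 and 10 (341 and 635 over all genes), and 6 of the 26 lost the threshold. Leaving out each library gave 5 to 19 higher and 7 to 14 lower, with 5 and 7 without WT 678_2 (202 and 494 over all genes) and 5 and 8 without NFAT5 KO 679_2 (259 and 594). Leaving out the members that overlap a gene left 4 and 4 of 29, and leaving out those that share at least 50% of their words with other genes, an alternative chosen after seeing the data, left 11 and 5 of 74. For both of these, the share over all genes was not taken. Of the 26, 12 passed in all 10 fits without 1 library, and 8 in fewer than 5. Across those fits, 76 of 260 values lost the threshold. Near-zero values changed sign: Gm37401 was -0.0326 by library size, -0.00543 with no low-count filter, -0.000273 with at least 5 CPM in at least 5 libraries, -0.0465 in prefix 679 alone and -0.0507 to 0.0304 with 1 library left out, and Gm26917 ranged over -0.332 to 0.0119 with 1 left out, above 0 without NFAT5 KO 678_5. The cause was not tested. No paired analysis was possible because the libraries of the genotypes share no replicate number.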
